A study of Mus musculus with 14 samples.

Results

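Circadian clock genes were followed in mouse cerebral cortex after cerebral venous sinus thrombosis (CVST), in which a clot blocks the large veins through which blood leaves the brain. The set held 10 genes taken by symbol from the 55894 entries of the deposited count table: Per1, Per2, Per3, Cry1, Cry2, Nr1d1, Nr1d2, Dbp, Ciart and Arntl (also called Bmal1). All 10 were found and all 10 passed the filter on low counts, with 90 to 2383 reads in a library. RNA came from the cortex of both hemispheres of mice kept on a fixed light/dark cycle, in 4 sham libraries, 5 libraries at 2 d after CVST (CVST-2d) and 5 libraries at 7 d after CVST (CVST-7d). The labels give no strain, sex, age or way of inducing the clot, do not say at which day sham cortex was taken, and do not state that each library is a separate animal. If libraries share animals, the p-values measure spread that is partly technical. The labels also give no hour of collection, so a difference in clock phase between groups and an effect of the injury cannot be told apart.

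The mammalian clock is a transcriptional feedback loop that runs in nearly every cell and that the suprachiasmatic nucleus of the hypothalamus keeps in step with daylight. Arntl pairs with Clock or, in forebrain, with Npas2 and switches on the Per and Cry genes, Nr1d1, Nr1d2, Dbp and Ciart through E-box elements in DNA. Per and Cry proteins then inhibit Arntl and Clock, and the receptors encoded by Nr1d1 and Nr1d2 repress Arntl itself, so Arntl normally peaks in the opposite part of the day from Nr1d1 and Dbp. Per1 and Per2 can also be switched on directly by light, neuronal activity and glucocorticoid hormone.

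The elements of this loop can be read in the bases just upstream of several of these genes. RefSeq promoter windows of build GRCm38.p6 were available for 9 of the 10 genes, and the 250 bases before each annotated start were searched on both strands for the E-box CACGTG, the related E-box-like hexamer CACGTT, the D-box TTANGTAA bound by Dbp, the ROR element core TAGGTCA bound by Nr1d1 and Nr1d2, and the cAMP response element TGACGTCA. The motifs share bases (CACGTG and CACGTT differ in their last letter), and each match was counted under its own letters. The E-box was found upstream of 3 of the 9 genes (Ciart, Cry1 and Per1) and of 6.02% of 32851 promoter windows. The E-box-like hexamer was found upstream of 3 (Cry1, Cry2 and Nr1d1; 3.85% of windows) and the D-box upstream of 1 (Per3; 2.06%). The ROR element core (2.23% of windows) and the cAMP response element (1.55%) had no match upstream of any of these 9 genes. Arntl and Per1 each had more than 1 window, and a gene was counted if any of its windows held a match. The E-box of Per1 lay before its more upstream start, and the window of its other start held 0 matches. The percentages are over windows, not genes. Stretches of 4 genes are printed 5′ to 3′ on the gene's own strand because they show the contrast between E-box and D-box promoters. Capitals mark the matches.
Per1 (chr11:69098758-69098813, plus strand, 1 E-box): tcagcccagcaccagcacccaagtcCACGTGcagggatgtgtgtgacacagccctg
Ciart (chr3:95882242-95882369, minus strand, 3 E-boxes): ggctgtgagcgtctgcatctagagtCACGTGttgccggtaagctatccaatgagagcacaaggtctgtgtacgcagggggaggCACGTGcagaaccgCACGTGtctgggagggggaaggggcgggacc
Cry1 (chr10:85185084-85185158, minus strand, 1 E-box and 1 E-box-like hexamer): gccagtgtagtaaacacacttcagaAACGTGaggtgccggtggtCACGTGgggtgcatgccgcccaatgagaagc
Per3 (chr4:151044791-151044895, minus strand, 2 D-boxes): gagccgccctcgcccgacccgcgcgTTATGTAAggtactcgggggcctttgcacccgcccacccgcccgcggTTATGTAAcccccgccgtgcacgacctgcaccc
The 3 E-boxes of Ciart begin 116, 58 and 44 bases before its start. The D-boxes of Per3 begin 205 and 158 bases before its start. A match is a description of the letters and does not show that a factor bound there.

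Gene counts summed to 14.7 to 20.8 M reads per library, and levels are given as CPM, which divides each count by the TMM-adjusted size of its library. The cortical marker Slc17a7, the glutamate transporter of excitatory neurons, was between 895 and 1574 CPM in every library. Tissue content varied within groups, and its medians differed between groups. The summed level of 5 choroid plexus markers ran from 11.8 to 865 CPM in sham, 3.84 to 490 CPM at 2 d and 8.78 to 125 CPM at 7 d. The medians were 169, 79.5 and 11.6 CPM. That of 6 striatal markers ran from 153 to 1086, 171 to 840 and 177 to 895 CPM, with medians of 585, 310 and 195 CPM. All 5 choroid plexus and all 6 striatal markers had negative values against sham at both times, and edgeR called 0 of them. Of 6 markers of the suprachiasmatic nucleus and hypothalamus 3 passed the filter, and Six6 had 0 reads in all 5 libraries at 2 d. The summed level of the 6 ran from 10.2 to 31.4 CPM in sham, 8.92 to 17.6 at 2 d and 7.74 to 12.1 at 7 d. Avp averaged 4.56 CPM in sham (up to 16.5), 0.36 at 2 d and 0.22 at 7 d. Vipr2 averaged 0.96, 0.44 and 0.78 CPM and Rgs16 9.83, 13.1 and 8.69 CPM in the same order. The part of choroid plexus, striatal and hypothalamic content in the clock genes was not tested. CVST-2d 5 and CVST-7d 2 lay on the sham side of the first principal component, at -26.7 and -26.9 against -48.2 to -27.3 in sham. Results that rest on them are given with and without them.

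In sham cortex the order of the genes was read from the deposited FPKM, which is scaled to transcript length. Dbp, a PAR bZIP transcription factor, was highest at 44.7 ± 5.80 FPKM (SD, n = 4), followed by Nr1d1 at 36.1 ± 0.21, Cry2 at 31.8 ± 1.35 and Nr1d2 at 27.8 ± 3.63. Per1 at 17.2 ± 1.97, Arntl at 14.3 ± 2.13, Ciart at 9.69 ± 1.66, Per2 at 7.72 ± 1.24, Per3 at 7.61 ± 2.18 and Cry1 at 6.17 ± 0.55 FPKM followed. The sham ranges of Dbp (38.0 to 50.6) and Nr1d1 (35.9 to 36.4) did not overlap, nor did those of Nr1d1 and Cry2 (29.9 to 33.1). The ranges of Cry2 and Nr1d2, of Per1 and Arntl, of Ciart and Per2, of Per2 and Per3 and of Per3 and Cry1 overlapped, so these neighbours in the order were not separated by the spread between libraries.

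The Per genes separated most clearly from sham: Per1 and Per2 fell at 2 d and at 7 d, while Per3 did not pass the test at either time. Over the 10 genes, edgeR's quasi-likelihood test with Benjamini-Hochberg adjustment called 2 lower at 2 d, where 0.969% of the 16918 genes tested were lower, and 0 higher, where 2.98% of genes were higher. At 7 d it again called 2 lower (0.833% of all genes) and 0 higher (3.61%). Between 7 d and 2 d it called 2 of the 10 higher, Dbp and Nr1d2 (1.54% of all genes), and 0 lower (1.25%). At an unadjusted p under 0.05, 7 of the 10 were lower at 2 d, beside 9.38% of all genes, and 3 at 7 d, beside 7.91%. Between the times 4 were higher and 1 lower at that level, beside 10.3% and 10.6%. DESeq2 called 3 of the 10 lower at 2 d and 2 lower at 7 d, where it called 413 and 323 of all genes lower. Between the times it called 3 higher and 1 lower (Cry1), beside 651 and 644 of all genes. Voom with sample quality weights called 4 lower at 2 d and 2 lower at 7 d, beside 1196 and 290 of all genes. It called 3 higher between the times, beside 586. The threshold was an adjusted p of 0.05, taken over all genes tested. The median log2 fold change of the 10 was -0.33 at 2 d and -0.15 at 7 d against sham, and 0.22 between the times, beside medians of -0.01, -0.01 and 0.01 over all genes. The 2 comparisons with sham share the same sham libraries. At 2 d the libraries of 4 genes (Per1, Per2, Nr1d1 and Dbp) lay wholly below sham, as did 3.06% of all genes, and at 7 d those of 3 (Per1, Per2 and Cry1), as did 3.87%. Between the times Nr1d2, Dbp and Ciart lay wholly higher at 7 d, as did 2.28% of all genes.

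**Figure D1:**
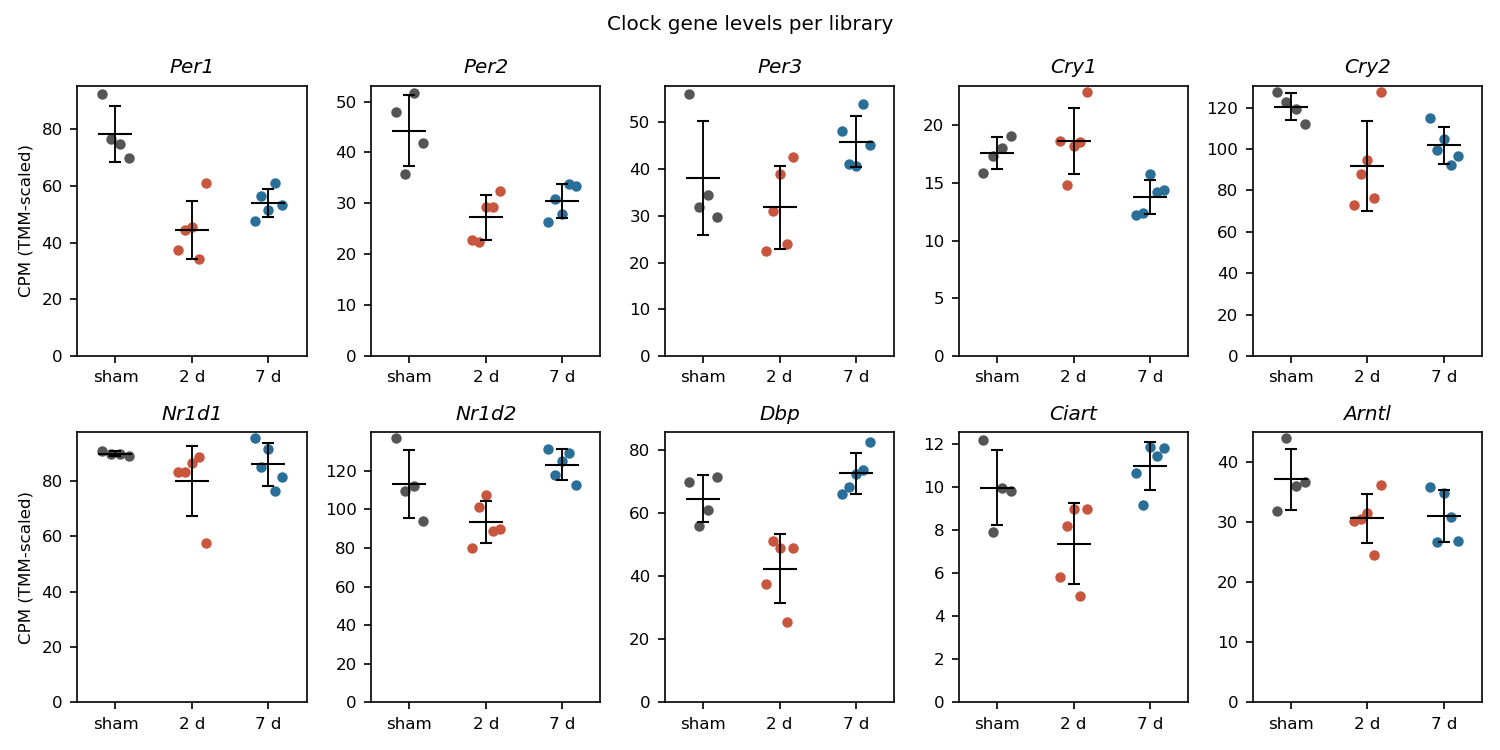
Levels of the 10 clock genes in CPM (y axis from 0, TMM-scaled) for sham, CVST 2 d and CVST 7 d; each point is 1 library, and the bar and whiskers give the mean and SD (n = 4, 5 and 5). Every CVST library lies below the sham range for Per1 and Per2, while Dbp is low at 2 d and lies at 66.0 to 82.8 CPM at 7 d.

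Per1, a period protein of the negative limb and the member most quickly induced by activity and hormones, measured 92.4, 76.4, 74.8 and 69.7 CPM in sham 1 to 4. It measured 37.5, 44.3, 45.6, 34.3 and 60.9 CPM in CVST-2d 1 to 5 and 47.8, 56.4, 51.7, 61.1 and 53.4 CPM in CVST-7d 1 to 5. All 10 CVST libraries lay below the lowest sham library, with CVST-2d 5 the nearest of the 2 d libraries. At 2 d Per1 fell by 0.82 ± 0.14 on the log2 scale (SE; n = 4 and 5; edgeR adjusted p = 0.0107), a change of -43.2%. The call held in all 9 fits that left out 1 library (adjusted p = 0.00056 to 0.0440). At 7 d it fell by 0.53 ± 0.14 (edgeR adjusted p = 0.0458), or -30.9%. That call ended in each of the 9 fits with 1 library of either group left out (adjusted p = 0.0569 to 0.121), while the log2 value stayed between -0.59 and -0.44. It was also lost in limma on log2(FPKM + 0.1), at an adjusted p of 0.137. The difference between 7 d and 2 d measured 0.28 ± 0.13 (adjusted p = 0.245) and passed without CVST-2d 5 (0.42, adjusted p = 0.0351).

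Per2, the paralogue most closely tied to the period of the clock, measured 47.9, 35.9, 51.6 and 41.8 CPM in sham 1 to 4. It measured 22.8, 22.3, 29.3, 29.3 and 32.5 CPM in CVST-2d 1 to 5 and 26.3, 30.8, 27.9, 33.8 and 33.5 CPM in CVST-7d 1 to 5. Both CVST groups lay wholly below sham, with sham 2 the lowest of the sham libraries. Per2 fell by 0.70 ± 0.13 at 2 d (SE; n = 4 and 5; edgeR adjusted p = 0.0151), or -38.5%, and by 0.54 ± 0.13 at 7 d (adjusted p = 0.0343), or -31.2%. The call at 2 d ended without sham 3 (adjusted p = 0.0671) and held in the other 8 fits with 1 library left out. At 7 d it held without sham 2 or CVST-7d 2 and ended without any 1 of the other 7 libraries (adjusted p up to 0.128), and it was lost in limma on log2(FPKM + 0.1) (adjusted p = 0.129). The difference between 7 d and 2 d was 0.16 ± 0.13 (adjusted p = 0.487), with a 95% interval of -0.11 to 0.43.

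Per3, the period gene least needed for rhythm, behaved otherwise. Its level was 29.6 to 34.4 CPM in sham 2, 3 and 4 but 56.1 CPM in sham 1. It lay between 22.6 and 42.6 CPM at 2 d and between 40.7 and 53.9 CPM at 7 d, where every library stayed inside the wide sham range. The log2 difference from sham was -0.26 ± 0.21 at 2 d (SE; n = 4 and 5; edgeR adjusted p = 0.507) and 0.27 ± 0.21 at 7 d (adjusted p = 0.513). Without sham 1 these values were 0.00 and 0.53. Between 7 d and 2 d Per3 measured 0.53 ± 0.20 (adjusted p = 0.145).

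The cryptochromes, which block Arntl and Clock together with the Per proteins, did not pass in any of the 3 comparisons. Cry2 measured 128, 123, 119 and 112 CPM in sham 1 to 4 and 73.0, 88.0, 94.9, 76.4 and 128 CPM in CVST-2d 1 to 5. Thus 4 of the 2 d libraries lay below sham and CVST-2d 5 lay at the top of the sham range. The 2 d difference was -0.39 ± 0.13 (SE; n = 4 and 5; edgeR adjusted p = 0.112). Without CVST-2d 5 Cry2 fell by 0.53 (adjusted p = 0.00485), and it was also called by voom with sample quality weights (adjusted p = 0.0158). At 7 d Cry2 lay at 92.4 to 115 CPM (-0.24 ± 0.13, adjusted p = 0.339).

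Cry1 was the member whose 7 d libraries lay lowest while its 2 d libraries did not. It measured 15.8 to 19.1 CPM in sham, 14.8 to 22.9 CPM at 2 d and 12.2, 12.4, 15.8, 14.2 and 14.4 CPM in CVST-7d 1 to 5. All 5 libraries at 7 d lay below sham 1, the lowest sham library, though CVST-7d 3 did so narrowly. The log2 difference was 0.08 ± 0.12 at 2 d (SE; n = 4 and 5; edgeR adjusted p = 0.735), -0.35 ± 0.12 at 7 d (adjusted p = 0.119) and -0.43 ± 0.11 between 7 d and 2 d (adjusted p = 0.0565). DESeq2 called the last difference (adjusted p = 0.0123), as did edgeR without CVST-2d 2 (adjusted p = 0.0295).

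**Figure D2:**
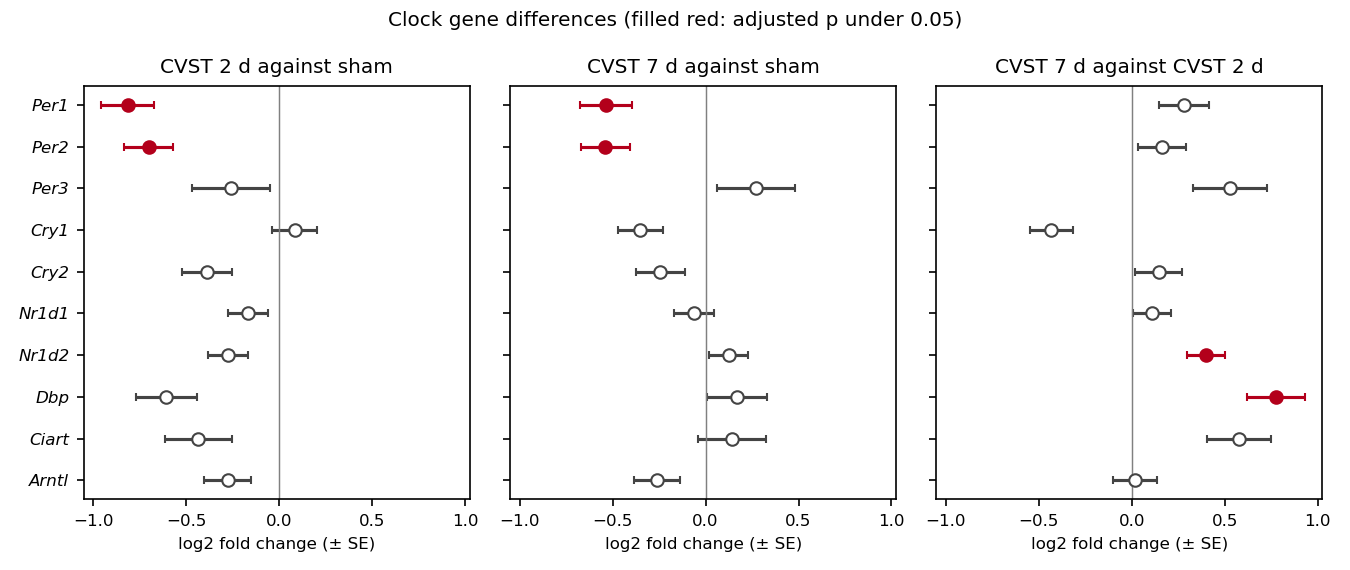
Log2 fold changes of the 10 clock genes (x axis, points with SE whiskers) in the 3 comparisons, from 1 edgeR fit of all 14 libraries; filled red points passed an adjusted p of 0.05. Per1 and Per2 lie left of 0 against sham at both times, and Dbp, at 0.78, and Nr1d2, at 0.40, lie right of 0 between 7 d and 2 d.

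Nr1d1 and Nr1d2 encode the REV-ERB receptors, haem-binding repressors of Arntl. Nr1d1 measured 91.0, 89.7, 89.8 and 88.9 CPM in sham 1 to 4, a coefficient of variation of 0.956% where counting alone gives about 2.49%. At 2 d it measured 83.3, 83.2, 86.4, 88.6 and 57.7 CPM in libraries 1 to 5, all under that narrow sham range, and at 7 d 76.4 to 95.6 CPM. The log2 difference was -0.17 ± 0.11 at 2 d (SE; n = 4 and 5; edgeR adjusted p = 0.384), or -0.07 without CVST-2d 5 (the value of -0.17 rests on that library), and -0.06 ± 0.11 at 7 d (adjusted p = 0.797). In the GENCODE M21 annotation, 8.55% of the exon bases of Nr1d1 lie in Thra, the thyroid hormone receptor gene on the other strand. The library kit named in the labels does not mark strand, so reads from that overlap cannot be told apart. Thra measured 635 ± 96.1 CPM in sham, 524 ± 122 at 2 d (-0.28 ± 0.15, adjusted p = 0.309) and 558 ± 67.2 at 7 d. In CVST-2d 5, the library with the least Nr1d1, Thra was the highest of the 5 at 734 CPM, and its part in Nr1d1 was not tested.

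Nr1d2 measured 137, 110, 112 and 94.0 CPM in sham 1 to 4. It measured 80.1, 101, 108, 88.9 and 89.6 CPM in CVST-2d 1 to 5 and 131, 118, 125, 129 and 113 CPM in CVST-7d 1 to 5. The times did not overlap each other, while each overlapped sham. Nr1d2 rose by 0.40 ± 0.10 from 2 d to 7 d (SE; n = 5 and 5; edgeR adjusted p = 0.0499), or 31.8%. This call sat at the threshold: it ended in each of the 10 fits with 1 library left out (adjusted p = 0.0507 to 0.138), with DESeq2 size factors (0.0505), with no filter (0.0616), with only these 2 groups in the fit (0.0639) and in limma on log2(FPKM + 0.1) (0.0569). DESeq2 and voom with sample quality weights called Nr1d2 higher at 7 d than at 2 d. Against sham the edgeR values of Nr1d2 were -0.28 ± 0.11 at 2 d (adjusted p = 0.153) and 0.12 ± 0.11 at 7 d (adjusted p = 0.568).

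Dbp and Ciart are outputs of the loop, Dbp activating genes through the D-box and Ciart feeding back as a repressor of Arntl and Clock. Dbp measured 70.0, 56.0, 61.1 and 71.6 CPM in sham 1 to 4. It measured 37.6, 51.1, 48.9, 25.5 and 49.1 CPM in CVST-2d 1 to 5 and 66.0, 68.3, 72.4, 73.8 and 82.8 CPM in CVST-7d 1 to 5. The 2 d libraries lay below all sham and all 7 d libraries, and the 7 d libraries overlapped the upper sham range. Dbp rose by 0.78 ± 0.15 from 2 d to 7 d (SE; n = 5 and 5; edgeR adjusted p = 0.0179), or 71.2%. The call held in 9 of 10 fits with 1 library left out and ended without CVST-2d 1 (adjusted p = 0.0639). It also ended with only these 2 groups in the fit (adjusted p = 0.0573).

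Against sham Dbp measured -0.61 ± 0.16 at 2 d (SE; n = 4 and 5), just outside the threshold in edgeR (adjusted p = 0.0507). DESeq2 (0.0114), voom with sample quality weights (0.0223), edgeR with no filter (0.0428) and edgeR without CVST-2d 4 (0.0485) or CVST-2d 5 (0.0272) called it. At 7 d the difference from sham was 0.17 ± 0.16 (edgeR adjusted p = 0.612), with a 95% interval of -0.18 to 0.52. Of the exon bases of Dbp, 18% lie in Sphk2 on the other strand in GENCODE M21, where the same limit holds.

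Ciart measured 12.2, 7.93, 9.96 and 9.81 CPM in sham 1 to 4. It measured 5.80, 8.20, 8.97, 4.95 and 8.97 CPM in CVST-2d 1 to 5 and 10.7, 9.19, 11.9, 11.4 and 11.8 CPM in CVST-7d 1 to 5. All libraries at 7 d lay above all at 2 d. The difference between the times was 0.58 ± 0.17 (SE; n = 5 and 5; edgeR adjusted p = 0.0822). It passed in DESeq2 (adjusted p = 0.0247), in voom with sample quality weights (0.0496) and in edgeR without CVST-2d 5 (0.0450). Against sham Ciart measured -0.43 ± 0.18 at 2 d (adjusted p = 0.181) and 0.14 ± 0.18 at 7 d (adjusted p = 0.719). With 90 to 225 reads in a library, Ciart is the least deeply counted member, and counting alone gives a coefficient of variation of 7.31% to 8.68% in a group.

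Arntl, the activator of the loop, measured 31.8, 44.0, 36.1 and 36.7 CPM in sham 1 to 4. It measured 30.2, 30.6, 31.6, 24.5 and 36.1 CPM in CVST-2d 1 to 5 and 35.8, 26.7, 34.8, 30.9 and 26.8 CPM in CVST-7d 1 to 5. The groups overlapped at both times. The log2 difference from sham was -0.28 ± 0.13 at 2 d (SE; n = 4 and 5; edgeR adjusted p = 0.216; 95% interval -0.55 to -0.01) and -0.26 ± 0.13 at 7 d (adjusted p = 0.272). Between 7 d and 2 d Arntl measured 0.02 ± 0.12 (adjusted p = 0.951), with an interval of -0.24 to 0.27. Dbp over the same step had an interval of 0.45 to 1.11.

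**Figure D3:**
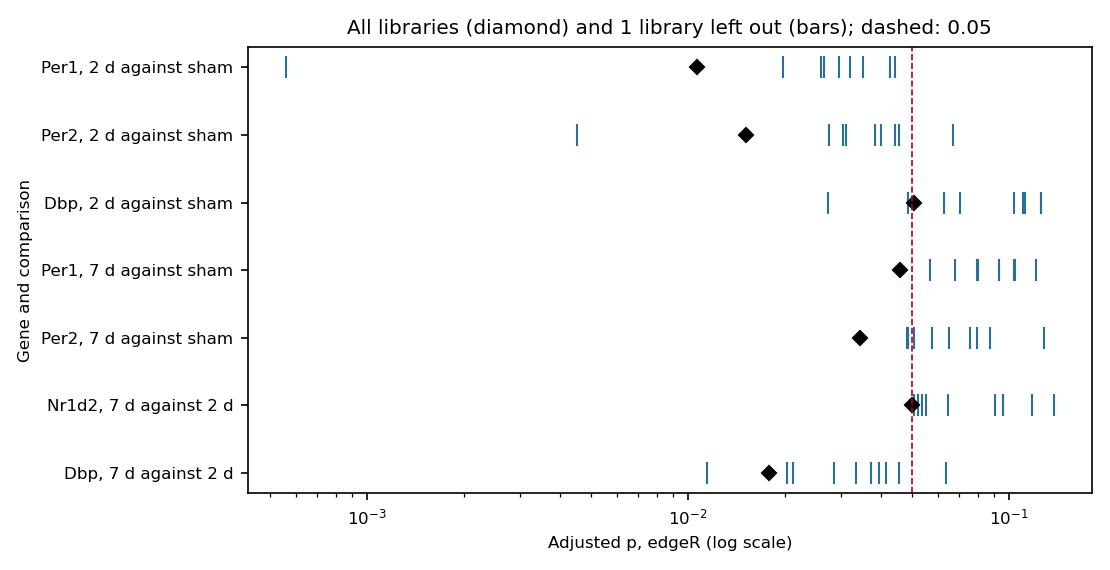
Adjusted p of edgeR (x axis, log scale) for the called clock gene differences and for Dbp at 2 d against sham. The diamond uses all 14 libraries and each vertical bar a fit with 1 library of the groups compared left out. Cry1 between 7 d and 2 d (edgeR adjusted p = 0.0565) is not shown. The dashed line is 0.05; Per1 at 2 d stays left of it in all 9 fits, and Nr1d2 crosses it in all 10.

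Within groups, the levels of most pairs of these genes deviated in the same direction from library to library. Log2 CPM was taken as the deviation from the group mean and compared over the 14 libraries, which share depth scaling and tissue content. Of 45 pairs of genes, 34 had a positive Pearson's r. Among Per1, Per3, Cry2, Dbp and Ciart, 5 genes chosen after the values were seen for their high r, the 10 pairs ran from 0.45 to 0.88, highest for Dbp with Ciart. Other sets of genes were not compared. CVST-2d 1 and CVST-2d 4 were the lowest 2 of the 5 libraries at 2 d for 7 members (Per1, Per3, Cry2, Nr1d2, Dbp, Ciart and Arntl). These 2 libraries also held the most Ttr, the transthyretin of choroid plexus, of their group (409 and 446 CPM, against 1.64 to 60.3 CPM), and its part in those levels was not tested. In sham, the library with the most Ttr (sham 4, 793 CPM) was the lowest of its group for 5 members (Per1, Per3, Cry2, Nr1d1 and Nr1d2) and the highest for 2 (Cry1 and Dbp). Sham 1 was the highest sham library for 6 members and the lowest for Cry1 and Arntl, and it held 3693 CPM of the myelin gene Mbp, against 1478 to 1820 CPM in the other sham libraries.

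Nr1d1 had a negative r in 8 of its 9 pairs, lowest with Per1 at -0.79. CVST-2d 5 was the highest 2 d library for 7 members and the lowest for Nr1d1. Without it, 6 of the 9 pairs stayed negative and r with Per1 was -0.47, while Dbp with Ciart stayed at 0.86. The relation of Arntl to the other 9 genes was tested by permuting libraries within groups (100000 resamples, 2-sided, adjusted over 9 relations). By that permutation test 0 of 9 passed for either Pearson's r or Spearman's rho, and 1 had an unadjusted p under 0.05, Cry2. Arntl and Cry2 had r = 0.57 (permutation p = 0.0479, adjusted 0.431) and rho = 0.51 (permutation p = 0.0846, adjusted 0.762), or r = 0.53 without sham 2 and CVST-2d 4, the 2 libraries farthest in Arntl. Arntl and Dbp had r = 0.27 (permutation p = 0.398, adjusted 0.608) and rho = 0.15 (permutation p = 0.638, adjusted 0.807), or r = -0.13 without those libraries.

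**Figure D4:**
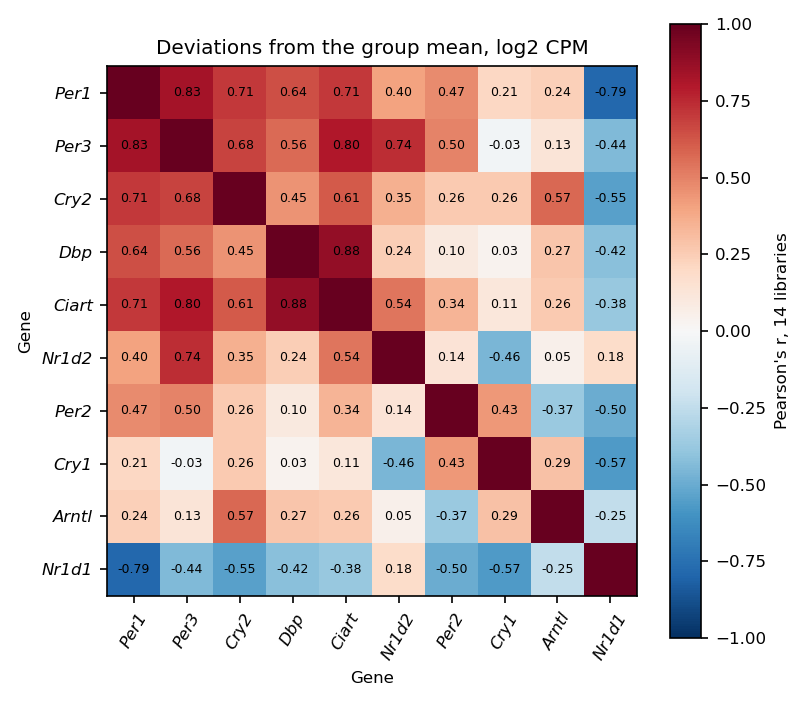
Pearson's r between the 10 clock genes (both axes) over 14 libraries, from log2 CPM deviations from the group mean; red is positive and blue negative. Per1, Per3, Cry2, Dbp and Ciart form a positive block (0.45 to 0.88), and the Nr1d1 row is negative except with Nr1d2 (0.18).

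The genes whose deviations were most like those of Dbp among all non-members, by Pearson's r over the 14 libraries, were Ddt (0.92), Gm5602 (0.91), Vegfb (0.90), Gm20449 (0.89) and Ift27 (0.89). Those most like Arntl were Gm49601 (0.89), Odr4 (0.84), Klhdc9 (0.84), BB218582 (0.84) and Fut2 (0.83). These are the extremes of 16918 genes and are given as a description.

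Per1 and Dbp, both E-box targets, parted between the times. The ratio of Dbp to Per1 in CPM was 0.757, 0.733, 0.816 and 1.03 in sham 1 to 4 and 1.00, 1.15, 1.07, 0.745 and 0.806 in CVST-2d 1 to 5. In CVST-7d 1 to 5 it was 1.38, 1.21, 1.40, 1.21 and 1.55. The 7 d libraries lay above all others, whereas sham and 2 d overlapped. The ratio was chosen after its values were seen and is given without a test.

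**Figure D5:**
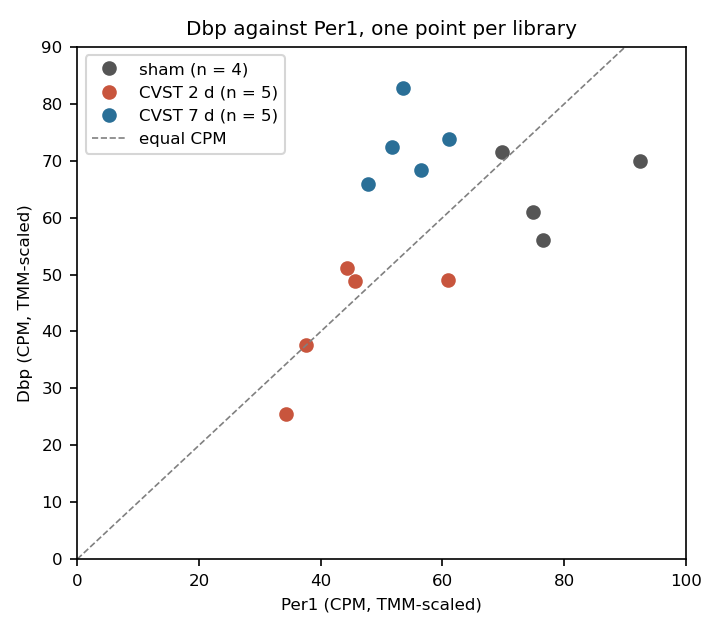
Dbp against Per1 in CPM (both axes linear from 0), 1 point per library, with the line of equal CPM. Sham libraries lie at high Per1, 2 d libraries are low for both genes, and all 5 libraries at 7 d lie above the line, at ratios of 1.21 to 1.55. Sham 4 (1.03) and CVST-2d 1, 2 and 3 (1.001, 1.15 and 1.07) also lie above the line.

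The rest of the clock was read from 14 other regulators and 10 output factors, all of which passed the filter. Among the 14 regulators edgeR called 1 higher at 2 d than sham, beside 2.98% of all genes. This was Timeless, which in mammals also acts at the replication fork. It rose from 4.56 ± 0.57 to 8.54 ± 1.96 CPM (0.91 ± 0.21, edgeR adjusted p = 0.0297) and fell by 0.78 ± 0.19 from 2 d to 7 d (adjusted p = 0.0433). CVST-2d 5 was again nearest to sham, at 5.21 CPM. The first call held in 1 of 9 fits with 1 library left out, the one without CVST-2d 5 (adjusted p = 0.00313), and ended in the other 8. The Timeless difference between the times was kept in 2 of 10 such fits, without CVST-2d 5 or CVST-7d 1, and lost in the other 8 (adjusted p up to 0.101). Against sham at 7 d edgeR called 0 of the 14 regulators (1 at an unadjusted p under 0.05), as did DESeq2 and voom. Clock itself, the partner of Arntl, measured 90.1 ± 6.06, 85.9 ± 13.1 and 88.6 ± 9.27 CPM in sham, 2 d and 7 d, and Npas2 37.4 ± 3.89, 34.9 ± 6.60 and 36.9 ± 4.02 CPM.

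Among the 10 output factors, Nfil3, which opposes Dbp at the D-box, fell from 11.6 ± 1.85 CPM at 2 d to 6.75 ± 1.38 CPM at 7 d (-0.78 ± 0.16, edgeR adjusted p = 0.0226). It was lower in 5 of 5 libraries at 7 d than in any at 2 d, whereas Dbp was higher. The share of all genes lying wholly lower at 7 d than at 2 d is not given here. How common such a separation is was therefore not judged for Nfil3. Its call held in 6 of 10 fits with 1 library left out and ended without CVST-2d 1 (adjusted p = 0.0665) or 4 (0.0582) or CVST-7d 3 (0.0539) or 4 (0.0543). Against sham edgeR called 0 of the 10 output factors at 2 d (0 at an unadjusted p under 0.05; 0 by DESeq2 and by voom) and 0 at 7 d (1 higher and 3 lower at an unadjusted p under 0.05; 1 lower by DESeq2, Bhlhe40, and 0 by voom). The Dbp relatives Hlf and Tef, also D-box factors, measured 183 ± 48.7, 134 ± 45.4 and 197 ± 35.1 CPM and 347 ± 23.9, 310 ± 53.9 and 344 ± 23.6 CPM in sham, 2 d and 7 d. These 2 genes, Clock and Npas2 were named after their values were seen.

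Per1 and Per2 also belong to the genes that activity and glucocorticoid can induce, and those lists were read beside them. Of 16 other activity and CREB-responsive genes, edgeR called 2 lower at 2 d than sham (3 by DESeq2 and 4 by voom) and 10 at 7 d. The shares of all genes that edgeR called lower were 0.969% and 0.833%. The medians of the list were -0.15 and -1.06. At 2 d 6 of the 16 had positive values, up to 0.76 (Fosb), and 10 had negative values. At 7 d all 16 were negative. Nr4a1 was picked from the called genes as an example. Nr4a1, an immediate early transcription factor, fell from 87.2 ± 16.2 CPM in sham to 45.2 ± 10.1 at 2 d (-0.95 ± 0.17, edgeR adjusted p = 0.0137) and 31.6 ± 5.74 at 7 d (-1.46 ± 0.18, adjusted p = 0.00199). The 2 d call ended without sham 3 (adjusted p = 0.0564). The list had 5 genes lower at 7 d than at 2 d (10 by DESeq2 and 4 by voom), with a median of -0.70. Over all genes edgeR called 1.25% lower between the times. Of 12 glucocorticoid-responsive genes edgeR called 1 higher at 2 d and 1 at 7 d, beside 2.98% and 3.61% of all genes. At 2 d this was Cdkn1a, at 49.4 ± 16.2 CPM against 17.5 ± 2.34 CPM in sham (edgeR adjusted p = 0.00918). DESeq2 and voom each called 2 higher at 2 d. At 7 d the called gene was Sgk1 (0.91 ± 0.24, edgeR adjusted p = 0.0483). The Sgk1 call was kept in 2 of 9 fits with 1 library left out, those without CVST-7d 1 or 3. It was lost in the other 7, at adjusted p up to 0.135. Cdkn1a is also a target of p53. The medians of that list were 0.55 and 0.41, and its values at 2 d ran from -0.14 (Tsc22d3) to 2.20 (Plin4). Plin4 and Fkbp5 (0.54) each lay above all sham in 1 library at 2 d, at 39.9 and 118 CPM. Their 2 d medians were 1.98 and 35.6 CPM, against 1.88 and 34.5 CPM in sham. For Sult1a1 (0.55) 4 of 5 libraries at 2 d lay below all sham. The 2 d medians of Sgk1 and Mt2 were 67.5 and 77.7 CPM, against 49.6 and 51.2 CPM in sham. These 5 genes were picked after their values at 2 d were seen. The part of activity and of glucocorticoid in the levels of Per1 and Per2 was not tested.

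Marker RNA of some cell types differed between the groups as well. The summed level of 7 microglia and macrophage markers ran from 181 to 213 CPM in sham. It ran from 170 to 394 CPM at 2 d and 234 to 648 CPM at 7 d. The 170 CPM belonged to CVST-2d 5, and the rest of the 2 d libraries ran from 272 to 394 CPM. EdgeR called 5 of the 7 higher at 7 d, beside 3.61% of all genes, and the smallest adjusted p at 2 d was 0.0537. At 2 d P2ry12 had a negative value, -0.54 (edgeR adjusted p = 0.209), and the other 6 had positive values. Of 7 astrocyte markers 2 were called higher at 2 d (Gfap and Aldh1l1) and 2 at 7 d (Gfap and Aqp4), beside 2.98% and 3.61% of all genes. At 2 d another 3 had negative values with an unadjusted p under 0.05, Gja1 at -0.48, Slc1a2 at -0.46 and Slc1a3 at -0.32 (edgeR adjusted p = 0.135, 0.101 and 0.211). These marker genes were named after their values were seen. Those of 8 excitatory neuron markers overlapped in all groups, at 3613 to 4730, 3873 to 4566 and 3048 to 4825 CPM. Their part in the clock genes was not tested, and in bulk cortex fewer cells of a type and less RNA per cell cannot be told apart.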

How the data were processed

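For each of the 14 libraries the authors deposited raw read counts by gene and, in a second table, FPKM values. Per the submitters' processing notes, fastp, HISAT2 and DESeq2 1.16.1 were used with build mm39. Which counter and annotation they used is not given in the sources used here. Entries without an Ensembl gene (535 entries, 0.203% to 0.278% of counts) were left out. Libraries were mapped to groups by title. All 14 were fitted together on the deposited counts in edgeR 4.0.16 (R 4.3.3) with TMM factors (0.962 to 1.04), filterByExpr (16918 genes kept) and its quasi-likelihood test. P-values are 2-sided and were adjusted by the Benjamini-Hochberg method across the genes kept. Log2 CPM used a prior count of 2. Intervals are at 95% and unadjusted. No molecular identifiers are recorded, so reads may be PCR copies and counting errors cover counting alone. Replicate pairs differed beyond sampling noise (lowest chi-square per degree of freedom 7.76).

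The named genes were the 10 members, called genes of the other lists (1 of them is not reported here), Thra, and for Dbp and Arntl the 5 most alike genes. Members and lists were chosen with earlier results of these data known. Alternatives were DESeq2 1.42.0, voom with sample quality weights and limma 3.58.1 on log2(FPKM + 0.1) of the deposited FPKM (mean above 0.1), other scaling, no filter, 2-group fits, a replicate block and leaving out each library. On simulated counts the edgeR fit recovered 40.5%, 49% and 52% of genes changed 1.5-fold in the 3 comparisons (2 d and 7 d against sham, 7 d against 2 d), and 85.5%, 87% and 87.5% of those changed 2-fold.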

Additional observations from a re-analysis of the deposited data

Results flagged for a closer look

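Nr1d1 in CVST-2d 5 (57.7 CPM) lay far below the other libraries at 2 d (83.2 to 88.6 CPM), the 1 such library among 30 gene and group combinations examined. Chance gives about 1 in 20, so 1 among 30 is no more than chance would give. In that library Per1, Per2, Per3, Cry1, Cry2, Ciart and Arntl were each the highest of the 5.

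The change from sham differed between the times for Dbp, by 0.78 on the log2 scale, and for Nr1d2, by 0.40, as tested by the direct contrast of 7 d with 2 d (edgeR adjusted p = 0.0179 and 0.0499; n = 5 and 5). Both were higher at 7 d in 5 of 5 libraries than in any library at 2 d, as were 2.28% of all genes. With 1 library left out, the Dbp call held in 9 of 10 fits and the Nr1d2 call in 0 of 10.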

How the results depend on the processing

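Over the settings tried, every called member kept its direction; calls moved with single libraries. Counts of called members with 1 library left out were 1 to 4 at 2 d against sham (2 with all), 0 to 1 at 7 d against sham (2) and 0 to 3 between 7 d and 2 d (2). At 2 d voom with sample quality weights called 4, as did edgeR without CVST-2d 5 and CVST-7d 2, a setting chosen after seeing the data. At 7 d limma on FPKM called 0. Between the times edgeR called 1 with DESeq2 size factors, 1 with no filter and 0 with only the 2 groups in the fit, DESeq2 called 4, and limma on FPKM called 1. Over all genes DESeq2 called 1077 higher and 413 lower at 2 d, voom 1420 and 1196, against 505 and 164 in edgeR. The same tools gave 1064 and 323, and 576 and 290, at 7 d (611 and 141 in edgeR), and 651 and 644, and 586 and 651, between the times (261 and 212). With 1 library left out the edgeR counts ran from 60 to 1193 higher and 16 to 774 lower at 2 d, from 101 to 892 and 18 to 143 at 7 d, and from 98 to 604 and 75 to 705 between the times. Limma on FPKM gave 260 and 44, 299 and 34, and 70 and 50, and the fit of only the 2 CVST groups 55 and 26. The cause was not tested. The relations with Arntl had 0 of 9 passing in each of the 6 alternatives.

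Replicate numbers are shared by the groups, but same-numbered libraries deviated together in 2 of 13 pairs (r over 0.1; range -0.44 to 0.28), so they were not treated as pairs. With the replicate block, 2 members were called at 2 d, 0 at 7 d and 0 between the times. Over all genes the block gave 186 higher and 129 lower at 2 d, 55 and 26 at 7 d, and 57 and 34 between the times. Ciart and Cry1, with the fewest reads, had the widest counting error.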
